A study of Mus musculus with 9 samples.

Results

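Interleukin and tumor necrosis factor genes and the genes of the NF-κB pathway were followed in the transcriptome of mouse cells sorted as retinal ganglion cells (RGCs). The 10 genes were chosen by name from the 15228 genes of the deposited table: the cytokine genes Il1a, Il1b and Tnf, the NF-κB subunit genes Nfkb1, Nfkb2, Rela and Relb, and the regulators Nfkbia, Bcl3 and Tnfaip3. All 10 were listed. The animals were wild-type C57BL/6J mice of both sexes, operated on at 6 to 8 weeks of age. Ctrl was the uninjured group with intact retinas. ONC was sampled 3 d after optic nerve crush with PBS injected into the eye as vehicle, and TPEN was sampled 3 d after the same crush with the zinc chelator TPEN injected into the eye. There were 3 libraries in each group. A Ctrl group with an injection alone was not analysed here, so ONC/Ctrl compares crush plus injection with neither. Whether each library came from its own mouse or from pooled mice is not stated in the sources used here, so p-values measure only the spread between these libraries.

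NF-κB is a family of dimeric transcription factors that is held in the cytoplasm by IκB proteins in resting cells. Receptors for interleukins and tumor necrosis factor activate IκB kinases, the IκB protein is degraded, and the dimer enters the nucleus and switches on genes of inflammation and survival. Among its targets are the cytokine genes themselves and its own inhibitors, which close a negative feedback loop. In the retina, microglia and infiltrating macrophages are well-known sources of these cytokines. Much of the control of the pathway is on protein degradation, processing and location, which mRNA levels do not measure.

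The libraries held 20077226 to 23109754 reads in Ctrl, 22967138 to 22986065 in ONC and 19946993 to 22217283 in TPEN. Levels are given in RPKM, reads scaled to exon length and library total, so that genes may be compared per length. RGC markers stood at very different levels. Rbpms was at 0.495 to 0.688 RPKM and Pou4f1 at 0.405 to 0.678 RPKM in Ctrl, whereas the neurofilament gene Nefl was at 254 to 260 RPKM, and the 8 listed of 9 RGC markers summed to 329 to 339 RPKM in Ctrl, 345 to 365 RPKM in ONC and 265 to 278 RPKM in TPEN. All were far below 11521 ± 471 RPKM (SD, n = 3) of the rod gene Gnat1 in Ctrl. The exons of Nefl share 1108 bases with those of Nefm, another RGC marker, on the opposite strand. The libraries are called by the gate they came from, not by a cell type. In such bulk samples, fewer cells of a type and less RNA per cell cannot be told apart.

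Promoter sequence, in which the letters of the κB motif can be looked for, is shown as the 250 bases before the RefSeq gene start for the inhibitors Nfkbia and Tnfaip3, for Nfkb2, and, as a cytokine gene, for Il1b. RefSeq windows on GRCm38.p6 were found for 8 of the 10 genes; Nfkb1 and Relb had none in the table used. Capitals mark the κB motif (a degenerate consensus, read on both strands) and the TATA box letters TATAAA (read on the gene's strand only). Each sequence runs 5′ to 3′ on the gene's strand, which is the minus strand for Nfkbia (chr12:55492648-55492897), Tnfaip3 (chr10:19015411-19015660) and Il1b (chr2:129371140-129371389) and the plus strand for Nfkb2 (chr19:46304487-46304736). RefSeq starts Tnfaip3 at base 19015410, inside the span that the deposited table gives this gene, so nearly all of its window lies within that span.
Nfkbia: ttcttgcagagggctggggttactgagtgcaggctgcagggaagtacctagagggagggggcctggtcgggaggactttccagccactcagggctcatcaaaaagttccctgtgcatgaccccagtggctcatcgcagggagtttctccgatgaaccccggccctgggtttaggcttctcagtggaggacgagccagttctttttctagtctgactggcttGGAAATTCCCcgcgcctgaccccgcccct
Tnfaip3: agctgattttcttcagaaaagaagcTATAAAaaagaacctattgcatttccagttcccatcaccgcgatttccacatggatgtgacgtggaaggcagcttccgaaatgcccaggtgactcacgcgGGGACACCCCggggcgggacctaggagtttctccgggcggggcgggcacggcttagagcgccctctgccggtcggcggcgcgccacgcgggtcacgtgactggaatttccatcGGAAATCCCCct
Nfkb2: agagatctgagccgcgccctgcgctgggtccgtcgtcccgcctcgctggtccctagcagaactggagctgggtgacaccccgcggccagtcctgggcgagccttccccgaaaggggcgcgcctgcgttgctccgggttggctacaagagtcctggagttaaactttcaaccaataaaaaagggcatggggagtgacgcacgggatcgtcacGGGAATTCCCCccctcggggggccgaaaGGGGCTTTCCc
Il1b: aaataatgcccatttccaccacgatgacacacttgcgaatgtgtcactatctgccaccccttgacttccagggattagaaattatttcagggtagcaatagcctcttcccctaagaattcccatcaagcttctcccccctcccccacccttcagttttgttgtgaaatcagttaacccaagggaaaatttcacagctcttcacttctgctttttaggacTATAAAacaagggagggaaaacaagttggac
The κB motif began 29 bases before the start of Nfkbia, 125 and 12 bases before that of Tnfaip3, and 39, 38 and 11 bases before that of Nfkb2, where the first pair overlap. Of the 11 windows of the 8 genes, 5 held it, all of them windows of Nfkbia, Tnfaip3 or Nfkb2, and those of Il1a, Il1b, Tnf, Bcl3 and Rela did not. Across all 32851 RefSeq windows of this length, 3.90% held it. TATAAA stood 32 bases before Il1a, 31 before Il1b, 29 before Tnf and 225 before Tnfaip3, and was in 7.59% of all windows. A match is a description of these letters and not a measured binding site.

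Among the 10 genes, crush was followed by higher levels of Il1a, Il1b, Tnf, Nfkb2 and Bcl3, which were 3.55-fold to 21.5-fold higher by the ratio of the group means. With TPEN, Il1a, Il1b and Bcl3 were lower than in ONC, whereas the differences of Tnf, Nfkb1, Nfkb2 and Rela from ONC did not pass the test. Tnfaip3 moved in the opposite direction, down in ONC/Ctrl and up in TPEN/ONC. Differences were tested with limma on log2(RPKM + 0.1), and the 0.1 RPKM added shrinks the log2 fold changes of scarce genes below the ratios of their means. A gene was called changed when it differed by 1.5-fold or more with an adjusted p below 0.05. In ONC/Ctrl, 5 of the 10 genes were called higher (Il1a, Il1b, Tnf, Nfkb2 and Bcl3) and 0 lower, where 4.58% of the 13566 genes tested were called higher and 0.752% lower. In TPEN/ONC, 3 were called lower (Il1a, Il1b and Bcl3) and 0 higher, against 1.21% and 0.818% of all genes. In TPEN/Ctrl, 4 were called higher (Il1a, Nfkb1, Nfkb2 and Bcl3) and 0 lower, against 3.45% and 0.457%. At an adjusted p under 0.05 alone, the count was 7 higher and 1 lower in ONC/Ctrl (11.7% and 6.97% of all genes), 4 lower and 1 higher in TPEN/ONC (4.14% and 3.24%), and 5 higher and 1 lower in TPEN/Ctrl (8.36% and 5.01%). Counted by groups that did not overlap, 9 were higher and 1 lower in ONC/Ctrl (20.7% and 15.8% of all genes), 5 lower and 2 higher in TPEN/ONC (15.6% and 12.5%), and 8 higher and 1 lower in TPEN/Ctrl (18.1% and 13.3%). Relb, which was not among the 13566 genes tested, is in the counts higher in ONC/Ctrl and in TPEN/Ctrl, whereas the shares are of the genes tested. The count higher in TPEN/Ctrl also holds Il1b and Tnf, whose lowest TPEN library had no more reads than their highest Ctrl library.

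These counts are descriptions, since the filter on low values, which required 0.5 RPKM as the mean of the 9 libraries, was not neutral for these genes. Relb did not pass it. Il1b, Tnf and Bcl3 passed it through their ONC levels alone, as their means in Ctrl and TPEN were under that limit. Nfkb1 and Nfkb2 were under it in Ctrl. The ONC libraries also entered both ONC/Ctrl and TPEN/ONC, so a rise in one and a fall in the other are not independent. The deposited table may itself favor genes read in ONC. Of its 15228 genes, 0 to 1 lacked a read in an ONC library, against 44 to 58 in Ctrl and 8 to 11 in TPEN. How genes were selected for the table was not examined, and fits without the filter also rest on it.

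**Figure D1:**
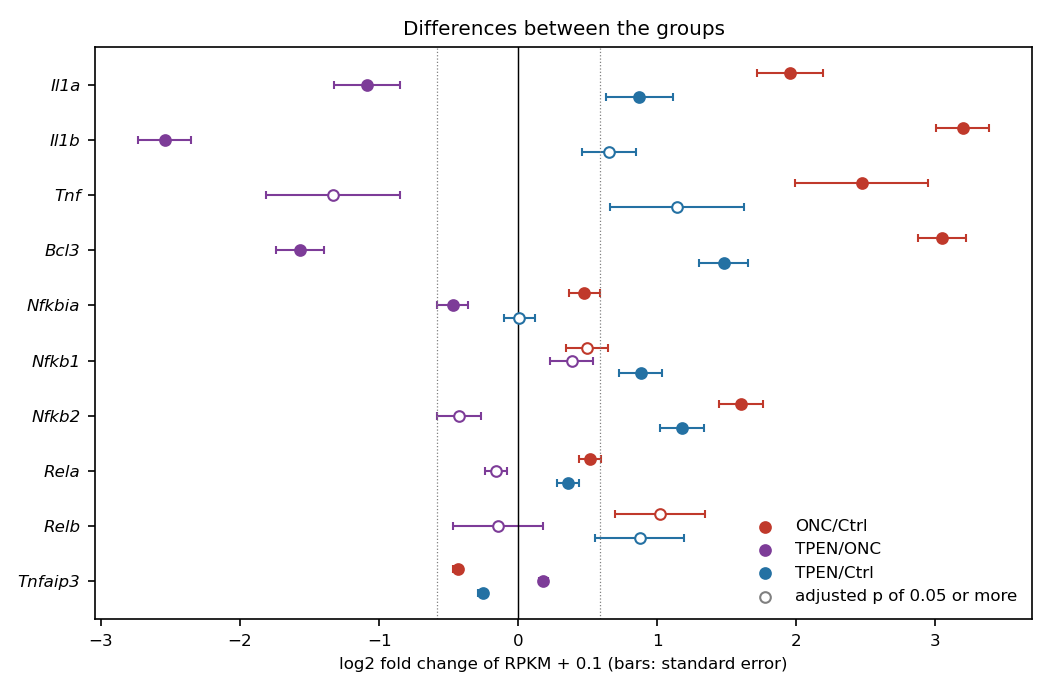
Log2 fold changes of RPKM + 0.1 for the 10 genes in ONC/Ctrl, TPEN/ONC and TPEN/Ctrl, with bars for the standard error; filled points had a limma adjusted p under 0.05, dotted lines mark a fold change of 1.5, and the Relb values come from the fit without the filter. Il1b and Bcl3 lie farthest to the right in ONC/Ctrl (3.20 and 3.05) and farthest to the left in TPEN/ONC (-2.54 and -1.57).

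Il1a encodes the alpha form of interleukin 1, an alarm cytokine of damaged cells, and lies on chromosome 2 (129299610 to 129309972, minus strand, GRCm38). It was at 0.859, 0.899 and 0.429 RPKM in Ctrl, 2.75, 3.40 and 2.87 RPKM in ONC, and 1.52, 1.50 and 1.09 RPKM in TPEN. The groups did not overlap, and TPEN stood between the others. In ONC/Ctrl, Il1a rose by 1.96 on the log2 scale (standard error, SE, 0.24, adjusted p = 0.000353 by limma). It fell in TPEN/ONC (-1.09, SE 0.24, adjusted p = 0.0246 by limma) and stayed above Ctrl in TPEN/Ctrl (0.87, SE 0.24, adjusted p = 0.0402 by limma). These last 2 calls were close to the threshold: leaving out any ONC or TPEN library raised the adjusted p of the fall to between 0.0517 and 0.0907, and leaving out Ctrl replicate 3, any ONC library, TPEN replicate 1 or TPEN replicate 2 raised that in TPEN/Ctrl to between 0.0551 and 0.116. The value in TPEN/Ctrl also missed the threshold with only the 6 libraries compared (0.0864) and after quantile normalization (0.0595). The exons of Il1a share 222 bases with Gm14023 on the opposite strand, and whether strand was used in counting is not given in the sources used here.

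Il1b encodes the beta form, which is made as a precursor and cut by inflammasome caspases, and lies next to Il1a on the same strand (129364570 to 129371139). Its level was 0.0936, 0.204 and 0.104 RPKM in Ctrl, 2.03, 1.90 and 2.08 RPKM in ONC, and 0.262, 0.283 and 0.237 RPKM in TPEN. The ONC libraries were tightly grouped, and all TPEN libraries were nearer to Ctrl than to ONC while above every Ctrl library. That separation was slight, with 10, 12 and 9 reads in TPEN and 4, 9 and 4 in Ctrl. TPEN replicate 3 and Ctrl replicate 2 had the same number of reads and differed in RPKM only through their library totals. The log2 fold change was 3.20 in ONC/Ctrl (SE 0.19, adjusted p = 3.27e-06 by limma) and -2.54 in TPEN/ONC (SE 0.19, adjusted p = 6.26e-05 by limma). In TPEN/Ctrl it was 0.65 (SE 0.19, adjusted p = 0.0546 by limma), which did not pass the threshold. It passed without Ctrl replicate 2 (limma adjusted p = 0.0125) or without the filter (0.0428), and its sign turned after quantile normalization (-0.31). Few reads lay behind the Ctrl level: 17 in the 3 Ctrl libraries together, against 263 in ONC, a ratio of 14.7 after scaling to the library totals with an exact 95% interval of 9.02 to 25.7 that covers counting error only.

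Tnf, the gene of tumor necrosis factor on chromosome 17 (35199381 to 35202007, minus strand), was at 0.272, 0.264 and 0 RPKM in Ctrl. The 0 reads of Ctrl replicate 3 allow up to 3 reads, or 0.0912 RPKM. Tnf was at 1.19, 1.17 and 1.30 RPKM in ONC, above every other library, and at 0.305, 0.330 and 0.734 RPKM in TPEN, where replicate 3 was closest to ONC. The reads were 10, 10 and 0 in Ctrl and 10, 12 and 24 in TPEN. Its rise in ONC/Ctrl was 2.47 on the log2 scale (SE 0.48, adjusted p = 0.00569 by limma). The difference in TPEN/ONC was -1.33 (SE 0.48, adjusted p = 0.138 by limma) and did not pass, although no TPEN library reached an ONC library. That p changed with the fit. Without Ctrl replicate 3 the limma adjusted p was 0.0193, with only the 6 libraries compared 0.0336, with a pseudocount of 1 RPKM 0.0162 and with voom on whole reads 0.0184, and over all alternatives that adjust p for a difference from 0 it ranged from 0.0162 to 0.296. In TPEN/Ctrl the value was 1.14 (SE 0.48, adjusted p = 0.159 by limma), or 1.96 with voom (adjusted p = 0.0437).

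**Figure D2:**
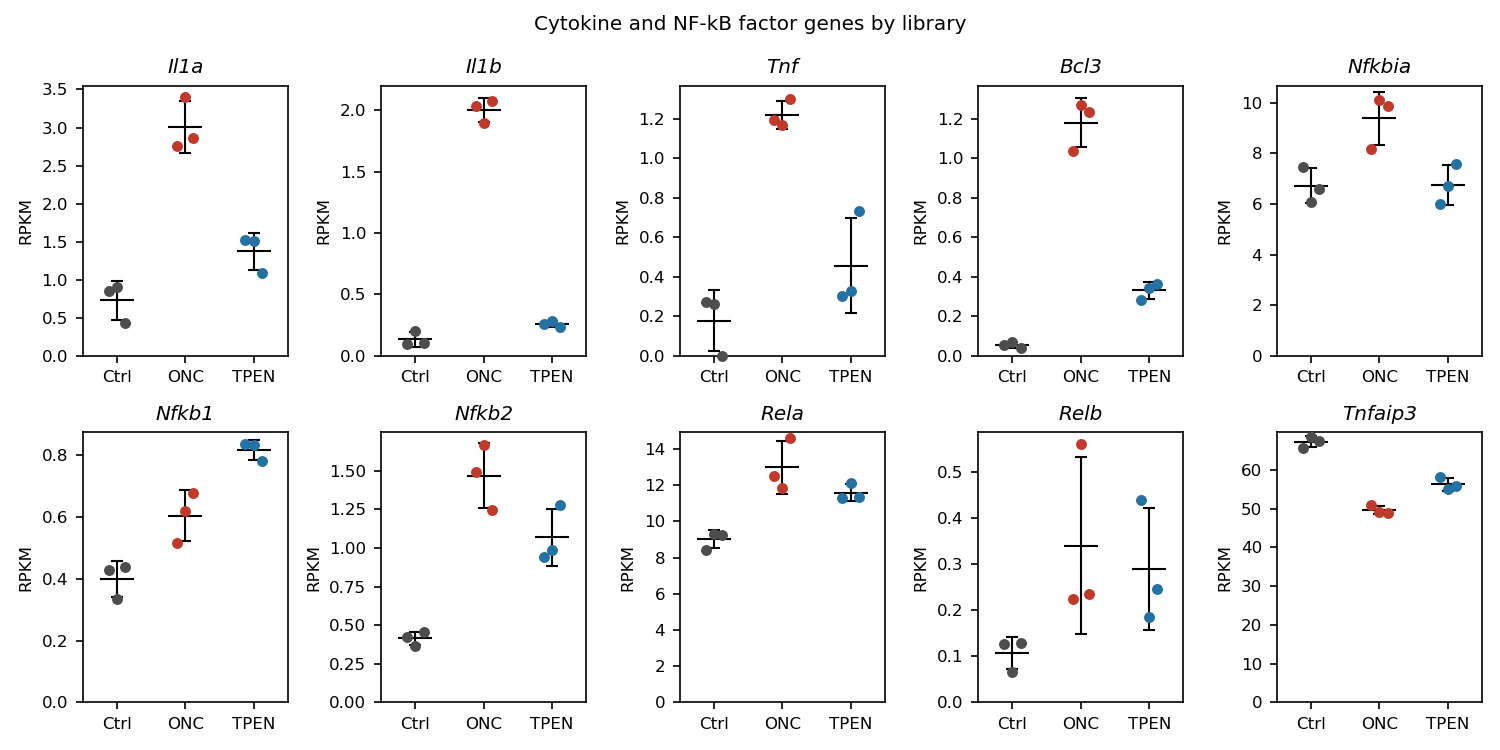
RPKM of the 10 genes in each library (points) with the group mean and SD (bars, n = 3); each panel has its own axis, starting at 0. Il1b and Bcl3 were highest in all 3 ONC libraries, Nfkb1 was highest in all 3 TPEN libraries, and Tnfaip3 was highest in all 3 Ctrl libraries.

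Among the subunit genes, Rela was the most abundant. It encodes the transactivating subunit of the classical dimer and lies on chromosome 19 (5637483 to 5648130, plus strand). It was at 8.44, 9.32 and 9.26 RPKM in Ctrl, 12.5, 11.8 and 14.6 RPKM in ONC, and 11.3, 12.1 and 11.3 RPKM in TPEN. Every crushed library, with or without TPEN, was above every Ctrl library, and ONC and TPEN overlapped. Rela rose in ONC/Ctrl by 0.52 on the log2 scale (SE 0.08, adjusted p = 0.00131 by limma) and in TPEN/Ctrl by 0.36 (SE 0.08, adjusted p = 0.0139 by limma), both under 1.5-fold. The difference in TPEN/ONC was -0.16 (SE 0.08, adjusted p = 0.279 by limma). Without Ctrl replicate 1 or TPEN replicate 2 the adjusted p in TPEN/Ctrl rose to 0.0535 and 0.0522.

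Nfkb2 encodes the precursor that is processed in the alternative pathway, and lies on chromosome 19 (46304737 to 46312090, plus strand). It was at 0.420, 0.368 and 0.454 RPKM in Ctrl, 1.49, 1.67 and 1.24 RPKM in ONC, and 0.943, 0.985 and 1.28 RPKM in TPEN. Both crushed groups were above Ctrl, and TPEN replicate 3 reached into the ONC range. The log2 fold change was 1.60 in ONC/Ctrl (SE 0.16, adjusted p = 9.29e-05 by limma) and 1.18 in TPEN/Ctrl (SE 0.16, adjusted p = 0.00106 by limma). In TPEN/ONC it was -0.43 (SE 0.16, adjusted p = 0.151 by limma). Its exons share 4 bases with Psd on the opposite strand.

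Nfkb1, which encodes the precursor of the usual partner of RELA, lies on chromosome 3 (135584655 to 135691547, minus strand). It stood at 0.429, 0.334 and 0.438 RPKM in Ctrl, 0.516, 0.621 and 0.679 RPKM in ONC, and 0.838, 0.832 and 0.781 RPKM in TPEN. The 3 groups did not overlap, in the order Ctrl, ONC, TPEN, and TPEN was 104% above Ctrl. Only the difference between the ends of that order passed the limma test, with a log2 fold change of 0.88 in TPEN/Ctrl (SE 0.15, adjusted p = 0.00459). ONC/Ctrl gave 0.50 (SE 0.15, adjusted p = 0.0522 by limma) and TPEN/ONC 0.39 (SE 0.15, adjusted p = 0.176 by limma). With limma voom on the whole reads, both passed, at an adjusted p of 0.00476 and 0.0251, and ONC/Ctrl also passed without the filter (0.0417) or without ONC replicate 1 (0.0496).

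Relb encodes the partner of the processed Nfkb2 product, and lies on chromosome 7 (19606217 to 19629438, minus strand). It was the scarcest of the 10 genes by its mean over the 9 libraries, at 0.126, 0.0668 and 0.128 RPKM in Ctrl, 0.224, 0.560 and 0.235 RPKM in ONC, and 0.438, 0.185 and 0.245 RPKM in TPEN. No crushed library was as low as any Ctrl library, but 1 high library in each crushed group made the spread wide. Without the filter, limma gave a log2 fold change of 1.02 in ONC/Ctrl (SE 0.32, adjusted p = 0.0532), -0.15 in TPEN/ONC (adjusted p = 0.845) and 0.87 in TPEN/Ctrl (adjusted p = 0.109).

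Bcl3 encodes a nuclear IκB-like protein that binds the processed NF-κB subunits and can act as a coactivator. It lies on chromosome 7 (19808462 to 19822770, minus strand). It was at 0.0541, 0.0699 and 0.0402 RPKM in Ctrl, 1.04, 1.27 and 1.23 RPKM in ONC, and 0.283, 0.346 and 0.365 RPKM in TPEN. The groups were far apart, with TPEN above Ctrl and below ONC in every library. The log2 fold change was 3.05 in ONC/Ctrl (SE 0.17, adjusted p = 2.20e-06 by limma), -1.57 in TPEN/ONC (SE 0.17, adjusted p = 0.000815 by limma) and 1.48 in TPEN/Ctrl (SE 0.17, adjusted p = 0.000425 by limma). The last value fell to 0.39 after quantile normalization (limma adjusted p = 0.172). The Ctrl libraries together held 9 Bcl3 reads, against 201 in ONC, a ratio of 21.3 after scaling to the library totals (exact 95% counting interval 10.98 to 47.2).

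Nfkbia encodes IκBα, the main cytoplasmic inhibitor, whose gene is switched on by NF-κB as a first feedback step. It lies on chromosome 12 (55489411 to 55492647, minus strand). It was at 7.47, 6.09 and 6.60 RPKM in Ctrl, 8.19, 10.1 and 9.88 RPKM in ONC, and 5.997, 6.71 and 7.57 RPKM in TPEN. ONC was above both other groups, and TPEN and Ctrl overlapped. Nfkbia rose in ONC/Ctrl by 0.48 on the log2 scale (SE 0.11, adjusted p = 0.0148 by limma) and fell in TPEN/ONC (-0.47, SE 0.11, adjusted p = 0.0341 by limma), both under 1.5-fold. In TPEN/Ctrl the value was 0.01 (SE 0.11, adjusted p = 0.983 by limma). The rise no longer passed without replicate 2 of Ctrl or of ONC, or without replicate 3 of ONC (adjusted p of 0.0550 to 0.0581), nor the fall without ONC replicate 2 or 3 or TPEN replicate 1 or 2 (0.0867 to 0.116).

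Tnfaip3 encodes a ubiquitin-editing enzyme that turns the pathway off, and lies on chromosome 10 (19000910 to 19015657, minus strand). It was by far the most abundant of the 10 genes, ranking 626 of 15228 in Ctrl, and the one gene of the 10 that fell after crush. It was at 65.7, 68.5 and 67.5 RPKM in Ctrl, 50.9, 49.3 and 49.0 RPKM in ONC, and 58.2, 55.0 and 55.8 RPKM in TPEN. The groups did not overlap and TPEN lay between the others. The log2 fold change was -0.44 in ONC/Ctrl (SE 0.03, adjusted p = 1.20e-05 by limma), 0.18 in TPEN/ONC (SE 0.03, adjusted p = 0.010 by limma) and -0.26 in TPEN/Ctrl (SE 0.03, adjusted p = 0.000634 by limma), all under 1.5-fold. The sum of the rod markers, most of it Gnat1, was also lowest in ONC. The sum of Gnat1, Pde6b and Nrl was 12327 to 13204 RPKM in Ctrl, 10605 to 10943 RPKM in ONC and 11462 to 11724 RPKM in TPEN. Of these, 3 of the 3 were lower in ONC/Ctrl at a limma adjusted p under 0.05, against 6.97% of all genes tested. In TPEN/ONC 0 of the 3 were higher at that threshold, against 3.24% of all genes tested, and their median log2 fold change was 0.02. Per 1000 RPKM of that sum, Tnfaip3 was at 5.11 to 5.56 RPKM in Ctrl, 4.50 to 4.68 RPKM in ONC and 4.80 to 4.96 RPKM in TPEN, a quantity chosen after the values were seen. The part of the rods in the change of Tnfaip3 was not tested, as this ratio cannot tell fewer cells from less RNA per cell.

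In Ctrl the order of the levels was Tnfaip3, Rela, Nfkbia, Il1a, Nfkb2, Nfkb1, Tnf, Il1b, Relb and Bcl3. Il1a, Nfkb2 and Nfkb1 overlapped in their ranges, as did Tnf, Il1b and Relb, and Bcl3 overlapped with Tnf and Relb. In ONC, Il1a and Il1b stood above Nfkb2 and Bcl3, and in TPEN Il1b fell back below Nfkb1. The share of the ONC/Ctrl difference that remained in the TPEN libraries, in RPKM and relative to the group means, was 6.78% ± 1.25 for Il1b, 24.6% ± 3.80 for Bcl3, 28.3% ± 10.7 for Il1a, 62.1% ± 17.4 for Nfkb2 and 65.0% ± 11.7 for Rela (SD over the 3 TPEN libraries). It was 62.3% ± 9.36 for Tnfaip3, whose difference was a fall, and 203% ± 15.2 for Nfkb1, which was farther from Ctrl in TPEN than in ONC. The spread was wide for the others, with 26.6% ± 23.1 for Tnf, 1.36% ± 29.4 for Nfkbia and 78.3% ± 56.7 for Relb. An exact permutation test over all 280 arrangements of the 9 libraries in 3 groups, made for each of the 10 genes, gave p = 0.00357, the smallest value it allows, for Il1a, Il1b, Tnf, Nfkb1, Bcl3 and Tnfaip3. The same exact test gave p = 0.00714 for Nfkb2 and Rela, 0.0286 for Nfkbia and 0.161 for Relb. For a pair of groups the smallest exact p is 0.1.

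Ratios of the genes within a library depend on its scaling only through the 0.1 RPKM added. By these ratios the subunits and regulators did not move together. The log2 ratio of Nfkb2 to Nfkb1 was 0.04 ± 0.07 in Ctrl, 1.15 ± 0.32 in ONC and 0.34 ± 0.27 in TPEN (SD, n = 3), with no overlap between groups (exact permutation p = 0.00357). Bcl3 to Rela was -5.88 ± 0.16 in Ctrl, -3.35 ± 0.20 in ONC and -4.77 ± 0.14 in TPEN (SD, n = 3, exact permutation p = 0.00357). Tnfaip3 to Rela fell from 2.89 ± 0.05 in Ctrl to 1.93 ± 0.17 in ONC and was 2.27 ± 0.09 in TPEN (SD, n = 3, exact permutation p = 0.00357). Nfkb1 to Rela was level between Ctrl and ONC (-4.19 ± 0.22 and -4.21 ± 0.16) and higher in TPEN (-3.67 ± 0.06, SD, n = 3, exact permutation p = 0.0321). Within the cytokines, Il1b to Il1a was -1.80 ± 0.47 in Ctrl, -0.56 ± 0.22 in ONC and -2.02 ± 0.17 in TPEN (SD, n = 3, exact permutation p = 0.0214), so Il1b fell further than Il1a with TPEN in every library. The other ratios among the 8 tested did not pass, with an exact permutation p of 0.189 for Nfkbia to Rela, 0.432 for Relb to Rela and 0.193 for Il1b to Tnf.

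**Figure D3:**
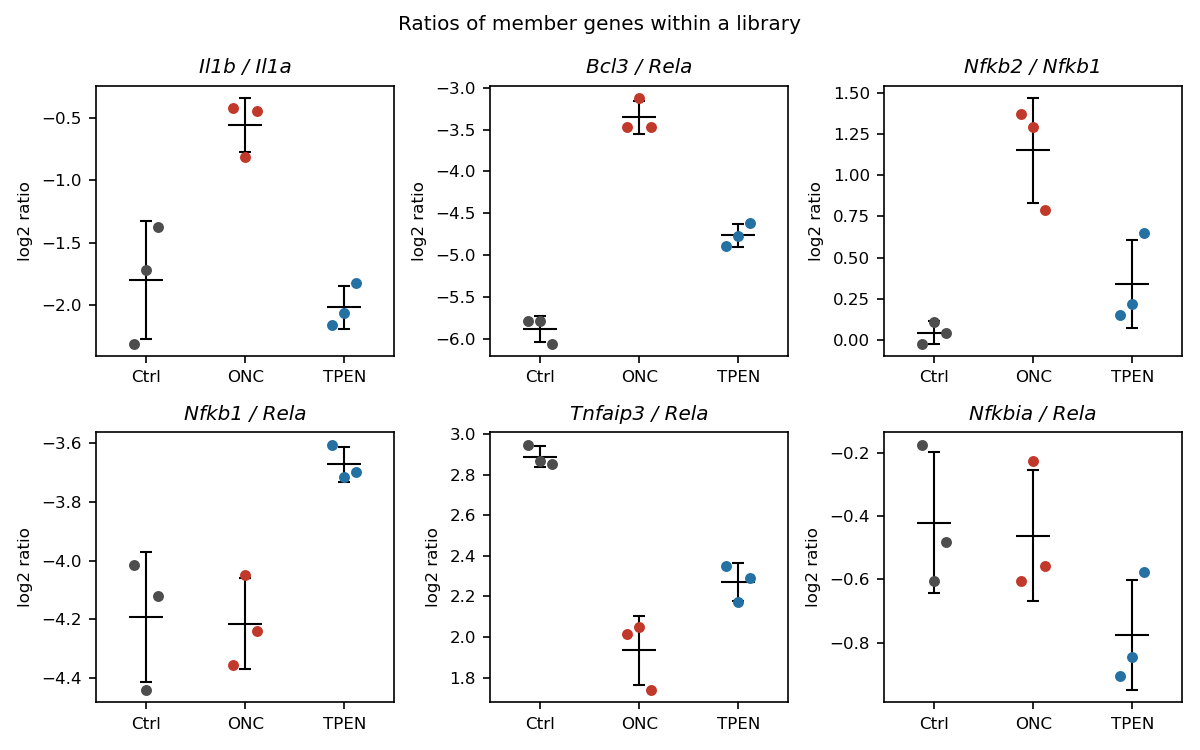
Log2 ratios of 6 pairs of the genes within each library (points), from RPKM + 0.1, with the group mean and SD (bars, n = 3). Nfkb2 / Nfkb1 and Bcl3 / Rela were highest in ONC, Nfkb1 / Rela was highest in TPEN, and Nfkbia / Rela overlapped between all groups.

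The sort had gated the cells as negative for CD48, a surface protein of leukocytes, and for CD15. Markers of microglia and macrophages, like the cytokines, were higher in ONC than in Ctrl, and their sum in TPEN lay between those of Ctrl and ONC. Of 11 such markers 10 were listed (Tyrobp was not) and 9 tested. Of these, 9 of 9 were called higher in ONC/Ctrl, 6 lower in TPEN/ONC and 9 higher in TPEN/Ctrl, against 4.58%, 1.21% and 3.45% of all genes tested. The lowest adjusted p in each comparison was that of Itgam, an integrin gene of myeloid cells, with log2 fold changes of 3.68, -1.32 and 2.36. The sum of the 10 markers was 3.59 to 4.12 RPKM in Ctrl, 34.6 to 37.0 RPKM in ONC and 17.4 to 18.8 RPKM in TPEN, with none of them at 0 in any library. Among these markers, the exons of Csf1r share 871 bases with Hmgxb3 and those of P2ry12 share 9 with Med12l, both on the opposite strand. Of 6 neutrophil markers, Csf3r was listed, at 0.124 to 0.223 RPKM in Ctrl, 0.989 to 1.13 RPKM in ONC and 0.250 to 0.511 RPKM in TPEN. Of 5 T cell markers 0 were listed. Gfap, the filament gene of astrocytes and reactive glia, rose in ONC/Ctrl (2.95 on the log2 scale) and fell in TPEN/ONC (-0.62), with a limma adjusted p of 1.56e-09 and 0.000156. The RGC and Müller glia markers were split. In TPEN/ONC 3 of the 5 tested RGC markers were lower and 1 higher at a limma adjusted p under 0.05, against 4.14% and 3.24% of all genes tested. So were 3 and 1 of the 5 Müller glia markers, whose sum was 478 to 496 RPKM in Ctrl, 506 to 519 RPKM in ONC and 387 to 399 RPKM in TPEN. In ONC/Ctrl 2 of the 5 RGC markers were higher and 0 lower at that threshold, where 11.7% and 6.97% of all genes tested were. Of the 5 Müller glia markers 3 were lower and 1 higher there, with a median log2 fold change of -0.18. The 1 higher was Apoe, a lipid carrier gene, called higher in ONC/Ctrl (0.64 on the log2 scale, limma adjusted p = 4.49e-07) and lower in TPEN/ONC (-0.59, limma adjusted p = 3.92e-06). In TPEN/Ctrl the Müller glia marker Glul, whose exons overlap Mir8114 and Teddm2, was called lower. The part of any of these cells in the levels of the 10 genes was not tested. The ratios to the marker sum that follow are no such test, as they cannot tell fewer cells from less RNA per cell.

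Relative to the marker sum, Il1b and Bcl3 were lower in TPEN than in ONC. The log2 ratio of Il1b to the sum was -4.08 ± 0.25 in Ctrl, -4.10 ± 0.02 in ONC and -5.66 ± 0.13 in TPEN (SD, n = 3, exact permutation p = 0.0357), and that of Bcl3 was -4.65 ± 0.06, -4.82 ± 0.17 and -5.41 ± 0.10 (SD, n = 3, exact permutation p = 0.00714). Both ratios were below ONC in every TPEN library, with a difference in the group means of -1.56 for Il1b and -0.59 for Bcl3, and kept that direction with nothing added to the values (-1.96 and -0.85). Ctrl and ONC overlapped in both ratios, with a difference of -0.02 for Il1b and -0.17 for Bcl3, whereas with nothing added ONC was above Ctrl in every library by 0.74 and 1.21. For Bcl3 the position of TPEN against Ctrl also turned, from -0.76 to 0.36 with nothing added. Il1a to the sum was -2.28 ± 0.46 in Ctrl, -3.54 ± 0.20 in ONC and -3.64 ± 0.30 in TPEN (SD, n = 3, exact permutation p = 0.0286), and ONC and TPEN overlapped. That p rose to 0.0536 without ONC replicate 2 or TPEN replicate 3. For Tnf the groups overlapped (exact permutation p = 0.179). The other 6 ratios of the 10 tested, those of the subunits, Nfkbia and Tnfaip3, were lower in ONC than in Ctrl in every library. Compared with ONC, 5 of these 6 were higher in every TPEN library, and Relb overlapped. The differences in the group means were 1.37 for Nfkb1, 1.16 for Tnfaip3, 0.82 for Rela, 0.56 for Nfkb2 and 0.51 for Nfkbia. The ratio of the mean marker sums was 9.49 in ONC/Ctrl and 0.505 in TPEN/ONC. A gene at an unchanged level would thus also have a lower ratio in ONC and a higher one in TPEN. The directions of these 6 ratios therefore do not show a change of the genes themselves. Without the marker sum, the log2 fold changes in TPEN/ONC were -0.43 for Nfkb2, -0.47 for Nfkbia and -0.16 for Rela. They were 0.39 for Nfkb1 and 0.18 for Tnfaip3.

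**Figure D4:**
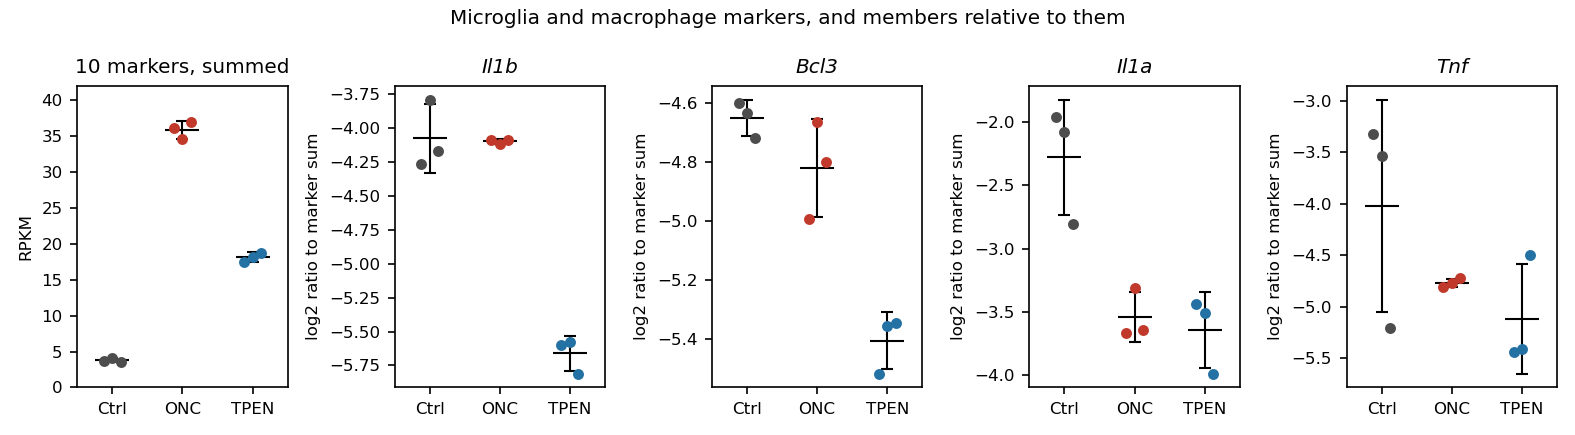
Summed RPKM of the 10 microglia and macrophage markers in each library, and the log2 ratio of Il1b, Bcl3, Il1a and Tnf to that sum, both with 0.1 RPKM added (points), with the group mean and SD (bars, n = 3). The marker sum was highest in ONC (34.6 to 37.0 RPKM), and the ratios of Il1b and Bcl3 were lowest in all TPEN libraries.

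Other genes of the pathway were counted in 6 lists beside the target genes, all written with earlier results of these data known. Among those that passed the filter, at most 1 gene of each of the 6 lists was called in a comparison. Of their 34 tested genes, 4 were called higher in ONC/Ctrl, 0 lower in TPEN/ONC and 4 higher in TPEN/Ctrl. Of all genes tested, 4.58%, 1.21% and 3.45% were so called. Without the filter, 15 of the 50 listed genes were called higher in ONC/Ctrl, 7 lower in TPEN/ONC and 10 higher in TPEN/Ctrl, against 6.19%, 1.85% and 4.5% of all 15228 genes. The 15 were 5 receptor and adaptor genes, 3 kinase genes, 3 other cytokine genes, 2 brakes and 2 genes of cytokine release, and the 7 held 3 receptor and adaptor genes and 1 of each of these other lists. The counts that follow are of genes that passed the filter, except where said. Among 4 tested genes for other NF-κB and IκB subunits (median log2 fold change in ONC/Ctrl 0.18, against 0.02 for all genes tested), Nfkbiz rose in ONC/Ctrl by 0.45 on the log2 scale (adjusted p = 0.0126 by limma), under 1.5-fold. Nfkbiz, which encodes a nuclear IκB-like protein, was named after its values were seen. Of 10 IκB kinase and upstream kinase genes, 1 was called higher in ONC/Ctrl and in TPEN/Ctrl, Ripk1, a kinase at the tumor necrosis factor receptor (medians of the list 0.06 and 0.01). Ripk1 averaged 2.05 ± 0.21 in Ctrl, 3.73 ± 0.22 in ONC and 3.38 ± 0.17 RPKM with TPEN (SD, n = 3), and shares exon bases with Gm17084 and Serpinb6a, so its reads are uncertain. Of 8 receptor and adaptor genes, 1 was called higher in both, Myd88, the adaptor of the interleukin and Toll-like receptors, at 1.41 ± 0.17, 2.60 ± 0.27 and 2.54 ± 0.23 RPKM in the same order (medians of the list 0.10 and 0.17). Its exons share 290 bases with Acaa1a on the opposite strand. Of 5 genes of cytokine release, 4 were listed and 2 tested, and Capn2, a calpain gene that overlaps Gm37885 on the opposite strand, was called higher in both (medians of the pair 0.51 and 0.46). Gsdmd, which encodes the pore protein for interleukin 1 release and was named after its values were seen, lay under the filter. Without the filter it was called higher in ONC/Ctrl (1.83, limma adjusted p = 5.27e-05) and lower in TPEN/ONC (-1.19, limma adjusted p = 0.00315). Of 21 other cytokine genes 6 were listed and 2 tested, and the alarm cytokine gene Il33, named after its values were seen, rose in ONC/Ctrl by 0.58 (adjusted p = 0.000705 by limma), under 1.5-fold.

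Among 8 tested brakes on the pathway, 1 was called higher in ONC/Ctrl and in TPEN/Ctrl and 0 in TPEN/ONC, where 2 were lower at an adjusted p under 0.05 (medians of the list 0.07, 0.05 and -0.06). Without the filter Birc3, which encodes a ubiquitin ligase of tumor necrosis factor receptor signaling and was named after its values were seen, was also called, higher in ONC/Ctrl (1.76, limma adjusted p = 0.000281) and lower in TPEN/ONC (-1.46, limma adjusted p = 0.00329). Birc3 had 5, 11 and 5 reads in Ctrl, 71, 50 and 38 in ONC, and 11, 11 and 9 in TPEN. The gene called among the 8 was Tnip2, which encodes a partner protein of the Tnfaip3 product. Tnip2 was at 57.8, 57.3 and 58.4 RPKM in Ctrl, 112, 111 and 106 RPKM in ONC, and 108, 105 and 103 RPKM in TPEN. It nearly doubled after crush, and TPEN overlapped ONC. The log2 fold change was 0.92 in ONC/Ctrl (SE 0.03, adjusted p = 4.51e-08 by limma) and -0.06 in TPEN/ONC (SE 0.03, adjusted p = 0.334 by limma). Tnfaip3 and Tnip2 thus changed in opposite directions in ONC/Ctrl.

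Of 8 tested target genes of NF-κB, 5 were called higher in ONC/Ctrl and 5 in TPEN/Ctrl, and 1 was called lower in TPEN/ONC. Of all genes tested, 4.58%, 3.45% and 1.21% were so called. The list was written with earlier results of these data known, so a share above that of all genes is a description and not a test. Without the filter the target genes called were 8, 6 and 3 of 13, against 6.19%, 4.5% and 1.85% of all 15228 genes. The median of the list was 1.42, 1.004 and -0.17 on the log2 scale in ONC/Ctrl, TPEN/Ctrl and TPEN/ONC (0.02, 0.01 and -0.01 for all genes tested). Gadd45b, a stress-induced gene of survival signaling, was at 1.27, 1.20 and 1.57 RPKM in Ctrl, 12.3, 14.1 and 14.8 RPKM in ONC, and 9.68, 10.8 and 11.4 RPKM in TPEN. Its log2 fold change was 3.26 in ONC/Ctrl (limma adjusted p = 4.51e-08) and -0.37 in TPEN/ONC (limma adjusted p = 0.0808), a value that passed without Ctrl replicate 3 (0.0373), with only the 6 libraries compared (0.0493), with a pseudocount of 1 RPKM (0.0442) and with voom (0.0133). Icam1, an adhesion gene for leukocytes, averaged 0.127 ± 0.0238 in Ctrl, 1.01 ± 0.215 in ONC and 0.527 ± 0.104 RPKM with TPEN (SD, n = 3), and fell in TPEN/ONC by 0.81 on the log2 scale (limma adjusted p = 0.0414). That fall missed the threshold with only the 6 libraries compared (0.0611) and without replicate 1 or 2 of Ctrl, 2 or 3 of ONC, or 1 or 3 of TPEN (0.0509 to 0.137), and the rise of Icam1 in TPEN/Ctrl missed it after quantile normalization (0.0509). Cd44, a hyaluronan receptor, rose in ONC/Ctrl (1.62, limma adjusted p = 0.000285) and gave 0.02 in TPEN/ONC (limma adjusted p = 0.969). Junb, an immediate early gene, rose by 1.37 in ONC/Ctrl (limma adjusted p = 1.94e-05) and gave -0.25 in TPEN/ONC (limma adjusted p = 0.214); its exons share 173 bases with Prdx2 on the opposite strand. These genes also answer to other transcription factors.

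**Figure D5:**
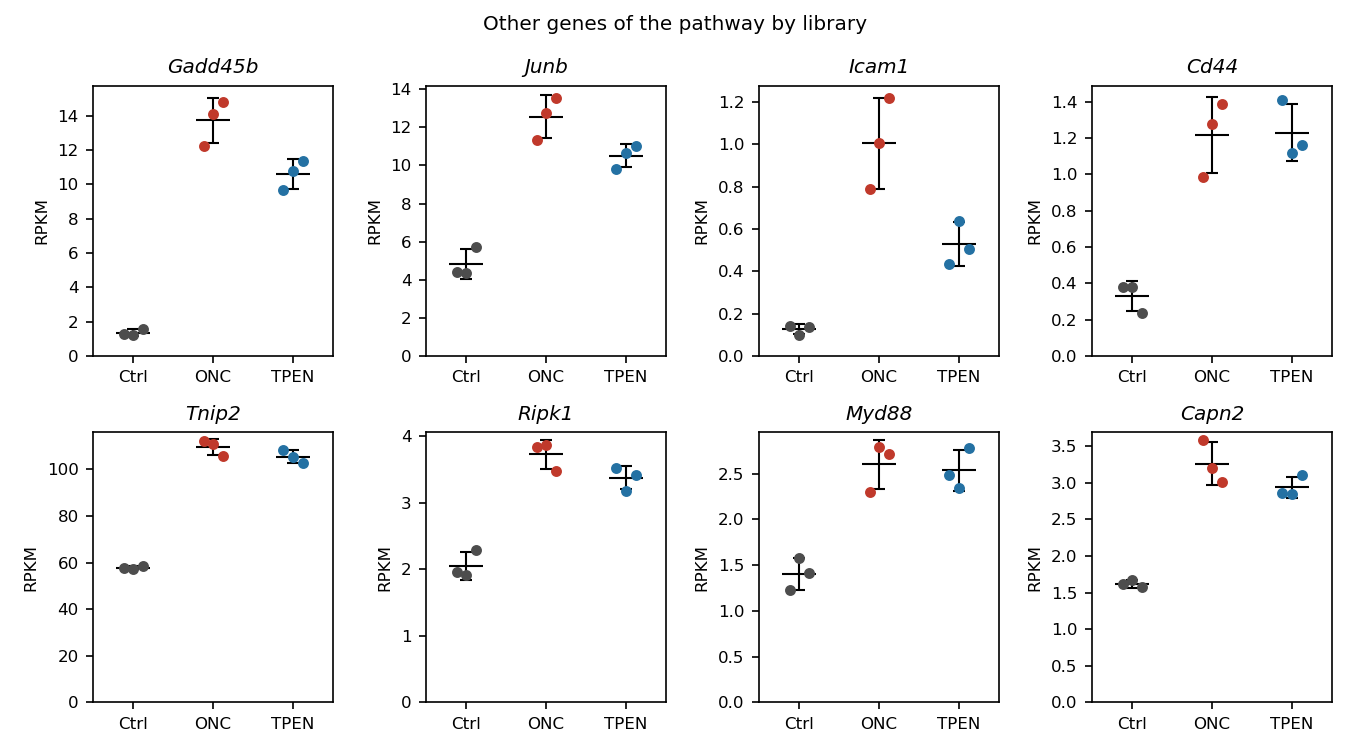
RPKM of 8 other genes of the pathway in each library (points) with the group mean and SD (bars, n = 3), each panel with its own axis from 0. All 8 were higher in every ONC and TPEN library than in every Ctrl library. Icam1 and Gadd45b were also lower in every TPEN library than in every ONC library.

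The genes whose pattern over the 9 libraries was most like that of Il1b, among 12139 genes averaging 1 RPKM or more, were Cxcl2, Hmox1, Arg1, Psap and Hsp90ab1, with a Pearson correlation of log2(RPKM + 0.1) of 0.994, 0.992, 0.990, 0.989 and 0.984. Cxcl2, a chemokine gene for neutrophils, averaged 0.0423 ± 0.0419 in Ctrl, 3.89 ± 0.272 in ONC and 0.124 ± 0.0247 RPKM with TPEN (SD, n = 3). It met the limit of 1 RPKM through ONC alone, so that limit was not neutral for genes high in ONC. Hmox1, which encodes the heme-degrading oxygenase, was at 1.21 ± 0.0628, 10.3 ± 0.361 and 1.86 ± 0.162 RPKM. For Nfkb2 they were Tubb5, Lman1, R3hcc1l, Axl and Edn2 (0.991, 0.990, 0.988, 0.987 and 0.985), of which R3hcc1l overlaps Gm16541. Edn2, an endothelin gene, averaged 2.32 ± 0.372 in Ctrl, 23.0 ± 1.89 in ONC and 10.3 ± 0.814 RPKM in TPEN, and Axl, a receptor tyrosine kinase gene, at 0.693 ± 0.0631, 2.17 ± 0.317 and 1.50 ± 0.173 RPKM (SD, n = 3). With 3 groups of libraries, such correlations mainly describe the 3 group means, and they carry no test.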

How the data were processed

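Libraries came from cells sorted from mouse retina as CD90.2-positive and CD48-, CD15- and CD57-negative, prepared with a stranded mRNA kit with molecular identifiers. Per the submitters' processing notes reads were trimmed with Trimmomatic 0.36, and per the study's methods they were mapped to GRCm38/mm10 with STAR and compared with edgeR. The counting program, the annotation, the use of strand and the collapsing of identifiers are not given in the sources used here. The authors deposited RPKM values, exon lengths, and, in 9 columns not used, the p-values and log2 fold changes from their tests.

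RPKM values were whole multiples of 1 read per library (100% within a tolerance of 0.01), which gave reads and library totals. A gene without a read may hold up to 3 reads, and intervals and floors cover counting error only. Groups came from the sample titles. The 13566 genes averaging 0.5 RPKM or more were fitted on log2(RPKM + 0.1) with limma 3.58.1 in R 4.3.3, using all 9 libraries and a mean-variance trend, with Benjamini-Hochberg adjustment over these genes. Single values and ratios were tested by exact permutation of the 9 libraries (Python 3.11.15). The statistic was the ratio of the variance between the 3 groups to that within them, so the test has no direction and compares no pair. Counting intervals were computed with scipy 1.17.1. Limma was tested on simulated data. Since the table holds RPKM, the count test of the study was not repeated. Alternatives were the filter, the pseudocount, quantile normalization, the libraries entered, the replicate number as a block, a test against 1.5-fold, and leaving out each library. Voom on whole reads and ratios with nothing added were chosen after seeing the data. Some planned cell type markers are not reported here and were left out of the marker sums and counts. The members and gene lists were chosen with earlier results of these data known. All 10 members are named, with at most 4 called genes per list and comparison by adjusted p and the 5 genes most correlated with Il1b and with Nfkb2; marker genes describe their lists, and any other gene is said to be named after its values were seen.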

Additional observations from a re-analysis of the deposited data

How the results depend on the processing

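The calls of Il1b and Bcl3 in ONC/Ctrl and TPEN/ONC and of Il1a and Nfkb2 in ONC/Ctrl held when any library was left out, at an adjusted p under 0.05. These fits kept the genes chosen by the filter on all 9 libraries, which Il1b and Bcl3 passed through ONC alone. Leaving out a library therefore does not remove that selection. With a filter at a mean of 1 RPKM, where most members were not tested, 1 member was called in each comparison (higher in ONC/Ctrl, lower in TPEN/ONC, higher in TPEN/Ctrl). In TPEN/Ctrl the 4 members called higher became 0 with a pseudocount of 1 RPKM, 2 after quantile normalization and 1 in the test against 1.5-fold. The count over all genes higher in ONC/Ctrl was 622, or 943 without a filter and 297 against 1.5-fold, and lower 102, or 31 with a pseudocount of 1, 184 after quantile normalization and 0 against 1.5-fold. In TPEN/ONC 111 genes were higher, or 39 with a pseudocount of 1, 7 against 1.5-fold and 181 with unadjusted p-values, and 164 lower, or 281 without a filter, 105 with the stricter filter and 40 against 1.5-fold. In TPEN/Ctrl 468 were higher, or 247 with a pseudocount of 1 and 148 against 1.5-fold, and 62 lower, or 34 with a pseudocount of 1, 102 after quantile normalization, 11 against 1.5-fold and 107 with unadjusted p-values. In the limma test against 1.5-fold, the adjusted p of Tnf in ONC/Ctrl was 0.0721. Quantile normalization turned the sign of Il1b (-0.31) and Nfkbia (-0.018) in TPEN/Ctrl, and leaving out 1 library moved the value of Nfkbia there between -0.077 and 0.088. With a pseudocount of 1, the exact permutation p became 0.0214 for the ratio of Il1b to Tnf and 0.00357 for that of Tnf to the markers. Leaving out 1 library moved the exact permutation p between 0.0286 and 0.0714 for the level of Nfkbia, 0.0107 and 0.0571 for Nfkb1 to Rela (above 0.05 without TPEN replicate 1), 0.0286 and 0.0536 for Il1a to the markers, and 0.0143 and 0.471 for Tnf to the markers (0.0143 without Ctrl replicate 3). Replicate numbers did not pair the libraries: the correlations of same-numbered libraries ran from -0.15 to 0.13, 1 of 9 over 0.1, and 2 of 9 libraries correlated best with their own number. With the replicate block the members called were again 5, 3 and 4, and the fall of Nfkbia had an adjusted p of 0.0632. The causes of these shifts were not tested. Low read numbers limit Il1b, Tnf, Bcl3 and Relb most.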

Other observations

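Several genes of the pathway lay under the filter of 0.5 RPKM and were described after their values were seen, with limma fitted without the filter. Il1rn, which encodes the natural antagonist of the interleukin 1 receptor, had 0, 2 and 0 reads in Ctrl, 162, 161 and 196 reads in ONC, and 2, 2 and 4 reads in TPEN. All ONC libraries were at 1.27 RPKM or above, and no other library was above 0.0362 RPKM. The ratio of ONC to Ctrl, scaled to the library totals, was 247, with an exact 95% counting interval of 68.0 to 2045. In TPEN/ONC the log2 fold change of Il1rn was -3.56 (SE 0.16). Nos2, the inducible nitric oxide synthase gene, had 57, 26 and 40 reads in ONC, 0, 2 and 3 in Ctrl and 0, 1 and 0 in TPEN. Ikbke, an IκB kinase-related gene, had 78, 66 and 62 reads in ONC, 11, 3 and 4 in Ctrl and 2, 4 and 4 in TPEN.

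Both tumor necrosis factor receptor genes were higher in ONC but differed with TPEN. Tnfrsf1b, the receptor gene typical of immune cells, had 53, 57 and 69 reads in ONC and 22, 8 and 4 in TPEN, -1.78 on the log2 scale (SE 0.31, adjusted p = 0.00772 by limma). Tnfrsf1a, the widely expressed receptor gene, had 47, 32 and 33 reads in ONC and 38, 35 and 38 in TPEN, 0.14 on the log2 scale (SE 0.24, adjusted p = 0.794 by limma). Their reads in Ctrl were 4, 6 and 2 for Tnfrsf1b and 4, 4 and 10 for Tnfrsf1a. The difference between the 2 receptor genes was not tested.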
